A study of Mus musculus with 12 samples.

Results

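Naïve T cells are kept out of the cell cycle by a set of genes that is active at rest. 10 of these quiescence genes were followed: the forkhead factors Foxo1 and Foxo3, the anti-proliferative genes Btg1, Btg2 and Tob1, the Schlafen genes Slfn1 and Slfn2, the thioredoxin-interacting protein Txnip, and the sestrins Sesn1 and Sesn3. They were chosen by symbol for what they are known to do, with earlier results of these data known. All 10 are among the 14323 symbols counted. The cells were naïve CD8+ T cells, sorted from wild type mouse spleen by surface markers, among them TCRβ+CD8+CD44-, which were kept for 6 h at 100000 cells in each well on plates coated with antibody. There were 4 groups. Unstimulated wells had isotype control in place of anti-CD3, with either isotype control or anti-LAIR-1 added, and stimulated wells had anti-CD3, again with either isotype control or anti-LAIR-1, each antibody at 2.5 µg/ml. Anti-CD3 engages the T cell receptor complex, LAIR-1 is an inhibitory collagen receptor, and the antibody 2C7 triggers it. Each group held 3 libraries, from mice 1 to 3, and the same 3 mice served all groups, with 1 library for each mouse and condition. The study kept adult mice on the C57BL/6N background, and the sex of these mice was not given in the sources used here.

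FOXO factors hold transcription of homing, survival and cell cycle inhibitor genes while the kinase AKT is inactive, and they leave the nucleus when antigen receptor and cytokine signals switch AKT on. BTG and TOB proteins bring the CCR4-NOT deadenylase to messenger RNAs and so shorten their poly(A) tails. A mouse mutant of Slfn2 has T cells that fail to stay quiescent, and sestrins hold back mTORC1 through the GATOR complexes, while TXNIP binds thioredoxin and limits glucose uptake.

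The libraries held between 1781218 and 7725545 counts, with medians of 2304214 in unstimulated isotype, 3548881 in unstimulated anti-LAIR-1, 4883760 in anti-CD3 isotype and 6204054 in anti-CD3 anti-LAIR-1. Depth therefore differed between the groups, and 3 counts, taken as the limit of detection, were worth 0.405 to 1.62 CPM (counts scaled to library size, with TMM normalization). Of 8 T cell markers 6 were listed (Cd3d, Cd3e, Cd3g, Cd8a, Cd8b1 and Lck), and each had counts in every group. Their summed level was 3337 to 3794 CPM in unstimulated isotype, 3412 to 3670 in unstimulated anti-LAIR-1, 1851 to 1996 in anti-CD3 isotype and 2306 to 2651 in anti-CD3 anti-LAIR-1. The share of counts from mitochondrial genes was 17.6 to 20.9% without and 11.5 to 13.2% with anti-CD3. Both listed gamma-delta T cell markers had no row. Summed markers of other cells were at most 18.5 CPM for B cells, 4.85 for CD4 and regulatory T cells, 4.08 for myeloid cells and 1.06 for NK cells. No marker of those lists passed 10 CPM, while the red cell gene Beta-s ranged from 0 to 169 CPM and was highest in mouse 2 in all 4 groups. Lair1 itself had 0 to 7 counts per library. The T cell marker sum was lower with anti-CD3 and, within anti-CD3, higher with anti-LAIR-1, while the mitochondrial share was lower with anti-CD3 and overlapped within anti-CD3 (11.5 to 12.5% with isotype and 11.9 to 13.2% with anti-LAIR-1). Their part in the results below was not tested.

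The 250 bases before the RefSeq start of 4 members are shown because these genes carry the contrasts that follow: Txnip and Slfn1 moved most with anti-LAIR-1, Slfn2 did not move as its neighbour Slfn1 did, and Btg1 is the other member with a forkhead core. Capitals mark CCAAT, the box bound by NF-Y (ATTGG where it lies on the reverse strand), GTAAACA, a forkhead core (TGTTTAC on the reverse strand), and TATAAA, the TATA box. All are from GRCm38.p6, 5′ to 3′ on the gene's own strand, which is the plus strand for these 4 genes.
Txnip, chr3:96557707-96557956: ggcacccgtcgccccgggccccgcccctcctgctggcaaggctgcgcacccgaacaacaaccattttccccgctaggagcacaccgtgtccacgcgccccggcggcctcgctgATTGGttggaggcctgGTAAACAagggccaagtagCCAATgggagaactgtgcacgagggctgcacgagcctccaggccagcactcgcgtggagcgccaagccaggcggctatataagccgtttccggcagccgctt
Btg1, chr10:96616751-96617000: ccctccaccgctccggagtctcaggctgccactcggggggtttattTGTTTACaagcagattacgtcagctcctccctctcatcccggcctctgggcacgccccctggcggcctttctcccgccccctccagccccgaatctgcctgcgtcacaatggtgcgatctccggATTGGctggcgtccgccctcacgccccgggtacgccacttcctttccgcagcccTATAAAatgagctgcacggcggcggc
Slfn1, chr11:83116570-83116819: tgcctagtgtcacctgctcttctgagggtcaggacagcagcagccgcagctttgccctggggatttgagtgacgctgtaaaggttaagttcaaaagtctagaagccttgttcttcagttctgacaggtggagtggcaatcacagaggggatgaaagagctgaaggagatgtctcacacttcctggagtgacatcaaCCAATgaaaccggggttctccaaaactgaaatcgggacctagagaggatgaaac
Slfn2, chr11:83064862-83065111: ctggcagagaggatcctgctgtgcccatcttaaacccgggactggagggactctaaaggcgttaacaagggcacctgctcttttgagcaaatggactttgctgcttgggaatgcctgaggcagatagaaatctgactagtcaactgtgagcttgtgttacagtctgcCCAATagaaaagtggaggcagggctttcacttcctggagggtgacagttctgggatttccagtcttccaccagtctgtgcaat
In Txnip the forkhead core lay 121 bases before the start, between CCAAT boxes at 137 and 102 bases. In Btg1 a forkhead core lay 204 bases before the start, on the reverse strand, with a CCAAT box at 80 and a TATA box at 26 bases. CCAAT, searched on both strands, was found in the promoters of 9 of the 10 members and in 33.8% of all 32851 promoters in the RefSeq table. GTAAACA was found in 2 members and in 3.17% of all promoters, and TATAAA in 2 members (Btg1 and Tob1) and in 12.4%. Only exact matches were counted, so that the stretch tatataa near the end of the Txnip window was not. The E-box CACGTG was in none of the members' windows and in 6.02% of all. The stretch cacgagggctgcacgag in the Txnip window comes close to CACGTG without an exact match, and was not counted either. Among the 6873 tested protein-coding genes with a promoter in the table, counted per gene as the members are, the shares were 40.8% for CCAAT, 2.49% for GTAAACA, 7% for TATAAA and 10.8% for CACGTG. None of these motifs overlaps another, and a match is a description of the sequence only. Slfn2 and Slfn1 are neighbours on chromosome 11 on the plus strand, with 46170 bases between them. Aligned from end to end, their windows shared 47.2% of aligned bases, and those of Slfn1 and the unrelated Txnip 46.4%. Such an alignment can miss short shared stretches that lie at different positions. Both Schlafen windows hold cacctgctctt and cacttcctggag, so the identity does not show how alike they are.

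In the GENCODE M21 annotation of GRCm38 all members are protein coding genes. On the plus strand, Txnip spans chr3:96557957-96561883, Btg1 chr10:96617006-96622809, Slfn1 chr11:83116849-83122670 and Slfn2 chr11:83065112-83070678. The others lie at chr3:52268336-52353221 (Foxo1, plus strand), chr10:42181841-42276755 (Foxo3, minus), chr1:134075170-134079120 (Btg2, minus), chr11:94211454-94215495 (Tob1, plus), chr10:41809935-41908424 (Sesn1, plus) and chr9:14275067-14333101 (Sesn3, plus). Antisense genes overlap Foxo1, Slfn2 and Txnip. The antisense partner of Txnip, Gm15441, had a count of its own, 0 to 13 per library, and whether counting used the strand was not given in the sources used here. Btg1 has 2 annotated pseudogenes, and reads fitting several places equally well had been discarded.

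With anti-CD3 and isotype, 8 of the 10 quiescence genes were lower than without anti-CD3, with log2 fold changes from -0.59 (Btg1) to -3.55 (Txnip, 11.7-fold). Of 9 members that could be tested, 8 were lower and Slfn2 was slightly higher (edgeR, adjusted p under 0.05), where 35.8% of 8453 protein coding genes were lower, 35.6% higher and 71.4% changed in either direction. Each of the 9 had groups that did not overlap, where 73.6% of all genes did so. The median log2 fold change of the 9 was -1.77, beside -0.02 over all genes tested. In bulk RNA, fewer cells of a type and less RNA per cell cannot be told apart. Foxo3 was not tested: it had 1 to 5 counts in unstimulated isotype, 1 in each anti-CD3 isotype library, 0 or 1 in anti-CD3 anti-LAIR-1 and 0 in unstimulated anti-LAIR-1, where the limit of detection was 0.796 to 0.832 CPM. It was at or near the limit of detection in every group, and no direction is given for it.

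**Figure D1:**
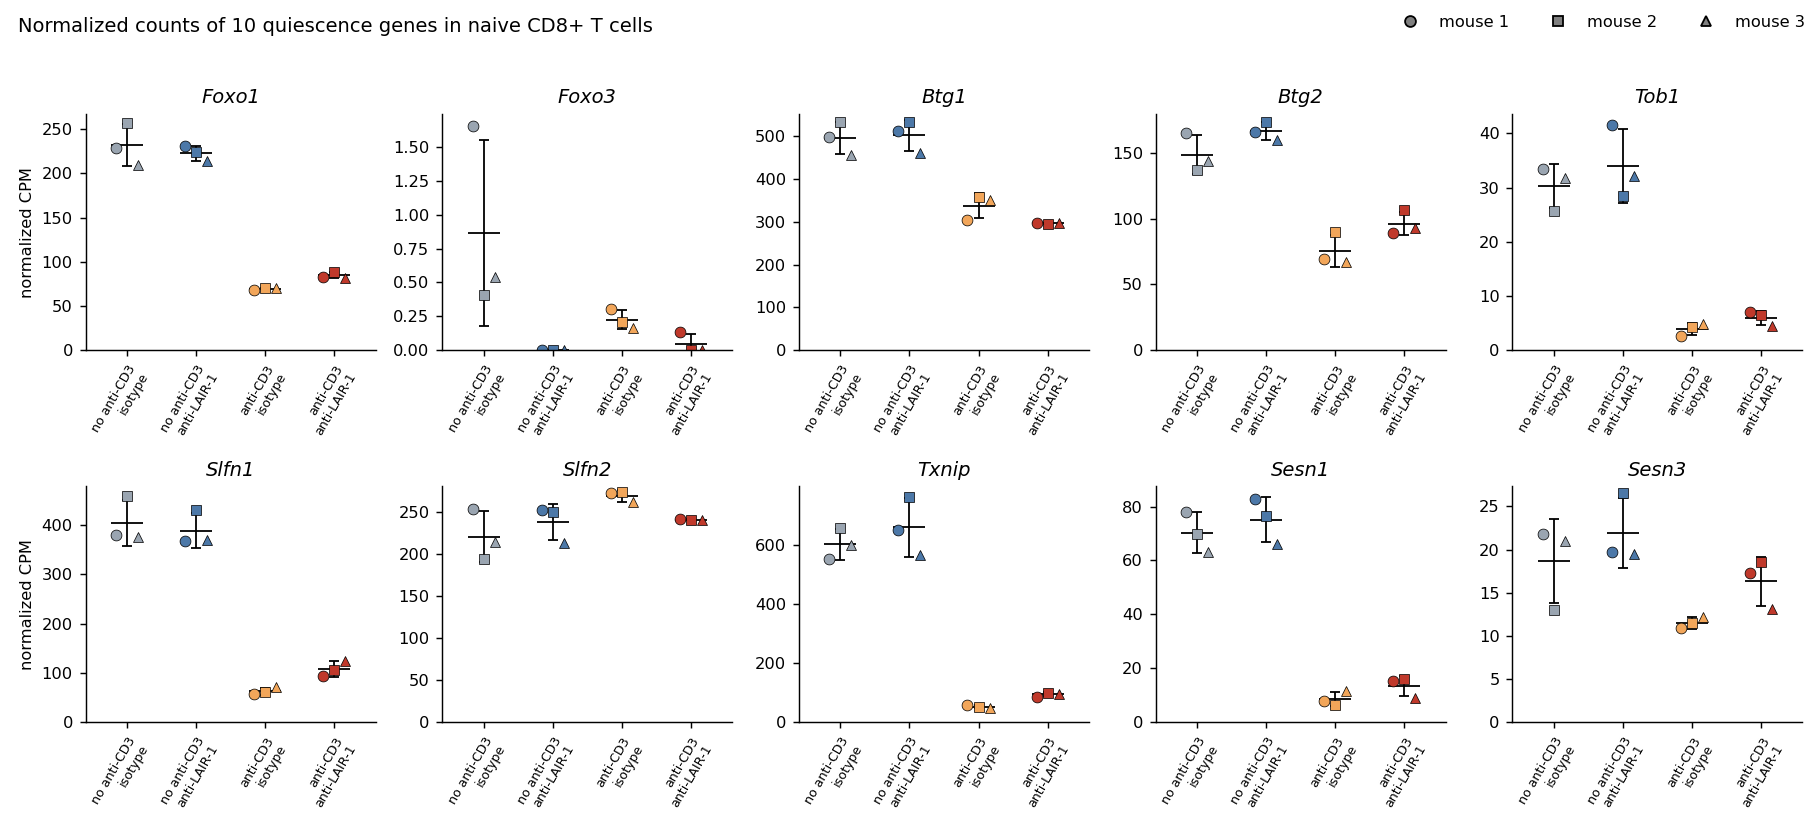
Normalized CPM (y axis, from 0, a scale of its own for each gene) of the 10 quiescence genes in the 4 groups (x axis). Points are libraries, with a symbol for each mouse, and the black bars are the mean and SD of 3 mice. All libraries with anti-CD3 lie below all without it for Foxo1, Btg1, Btg2, Tob1, Slfn1, Txnip and Sesn1, while Slfn2 stays between 194 and 274 CPM, and Foxo3 does not pass 1.65 CPM.

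Txnip had the highest fold of the 9 tested members. Its level was 550, 654 and 597 CPM in unstimulated isotype (mice 1 to 3) and 58.0, 52.1 and 48.3 CPM with anti-CD3 and isotype. The groups were far apart in every mouse, and Txnip fell by 3.55 on the log2 scale (SE 0.11, adjusted p = 3.7e-18 in edgeR). Slfn1, first described as a growth inhibitor of thymocytes, was at 380, 458 and 375 CPM without anti-CD3 and at 56.8, 60.8 and 70.6 CPM with it. Again no library of either group came near the other, and the log2 fold change was -2.71 (SE 0.11, adjusted p = 7.9e-16 in edgeR).

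Slfn2 did not follow Slfn1. In unstimulated isotype Slfn2 was at 254, 194 and 215 CPM, and with anti-CD3 and isotype at 273, 274 and 262 CPM. The lowest stimulated library was just above the highest unstimulated library, and the log2 fold change was 0.25 (SE 0.10, adjusted p = 0.033 in edgeR). The call was lost when mouse 1 (adjusted p = 0.055) or mouse 2 (0.051) was left out of the anti-CD3 isotype group in edgeR, and when mouse 2 (0.21) or mouse 3 (0.083) was left out of unstimulated isotype, and it held in 5 of 10 other settings. With upper quartile factors, which shift the median of all genes by -0.18, the log2 fold change was 0.07 (adjusted p = 0.54 in edgeR).

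Foxo1, the main FOXO factor of naïve T cells, was at 228, 257 and 210 CPM in unstimulated isotype and at 68.6, 70.4 and 70.3 CPM with anti-CD3. Its spread was small in the stimulated group, and Foxo1 fell by 1.77 on the log2 scale (SE 0.11, adjusted p = 7.5e-13 in edgeR). Sesn1, a target of p53 and FOXO, went from 78.1, 69.8 and 63.1 CPM to 7.86, 6.57 and 11.6 CPM, with a log2 fold change of -3.02 (SE 0.19, adjusted p = 1.2e-12 in edgeR). Its fold was close to that of Tob1, a BTG family member named for its binding to the ERBB2 receptor, which went from a mean of 30.3 ± 4.07 to 3.93 ± 1.09 CPM (SD, n = 3; log2 fold change -2.92, adjusted p = 3.8e-10 in edgeR) and had only 9 to 30 counts per library with anti-CD3.

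The remaining genes lost less. Btg1 went from 495 ± 37.7 to 338 ± 29.4 CPM (SD, n = 3) and Btg2, a p53 target that is also an early response gene in other cells, from 149 ± 14.6 to 75.5 ± 12.3 CPM. Both stood apart from the unstimulated libraries (log2 fold changes of -0.59 and -1.02, adjusted p of 6.0e-06 and 1.2e-07 in edgeR). Sesn3, another FOXO-dependent sestrin, went from 13.1 to 21.8 CPM down to 10.9 to 12.2 CPM with ranges less than 1 CPM apart, and had a log2 fold change of -0.72 (SE 0.24, adjusted p = 0.0093 in edgeR). Without mouse 1 of unstimulated isotype the adjusted p of Sesn3 was 0.075 in edgeR, and with the replicate block it was 0.088 in DESeq2.

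The same 8 genes were lower with anti-CD3 when anti-LAIR-1 was present, a comparison that shares its mice but no library with the former. Of the 9 tested, 8 were lower and none higher, where 36.1% of 8735 protein coding genes were lower, 36.8% higher and 72.8% changed. The groups did not overlap for these 8, where 74.9% of all genes had groups that did not overlap. The median log2 fold change of the 9 was -1.40, beside -0.02 over all genes. Under anti-LAIR-1, the log2 fold change was -2.81 for Txnip (SE 0.10), -1.86 for Slfn1 (SE 0.10), -1.40 for Foxo1 (SE 0.08), -2.46 for Sesn1 (SE 0.16) and -2.48 for Tob1 (SE 0.21). It was -0.76 for Btg1 (SE 0.07) and -0.80 for Btg2 (SE 0.09), and the 7 adjusted p-values of these genes in edgeR were at most 2.1e-07. Sesn3 fell by 0.42 (SE 0.19) with an adjusted p of 0.049 in edgeR, which was lost when mouse 1 (0.076) or mouse 3 (0.19) of the anti-CD3 anti-LAIR-1 group or mouse 2 (0.27) of unstimulated anti-LAIR-1 was left out, and in 6 of 10 other settings. For Slfn2 the log2 fold change was 0.01 (SE 0.08, adjusted p = 0.92 in edgeR), with a sign that depended on the scaling: it was -0.20 with upper quartile factors, which shift the median of all genes by -0.21, and there the adjusted p was 0.036.

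**Figure D2:**
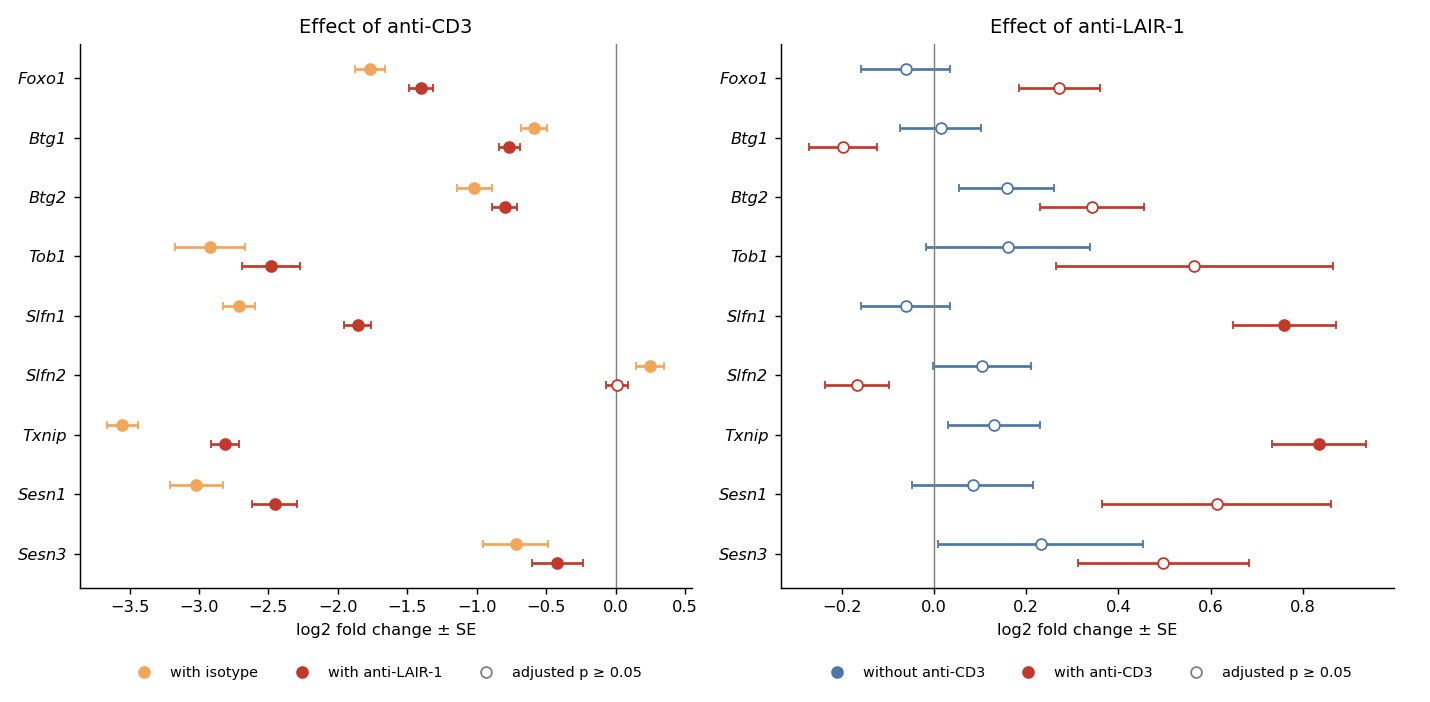
Log2 fold changes (x axis) with their SE for the 9 members that could be tested (y axis). Left, anti-CD3 against unstimulated with isotype or with anti-LAIR-1; right, anti-LAIR-1 against isotype without or with anti-CD3; open points have an adjusted p of 0.05 or more in edgeR (3 libraries per group). On the right, the filled points are Slfn1 at 0.76 and Txnip at 0.83, and every point without anti-CD3 is open.

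To see what LAIR-1 triggering does to these genes during stimulation, the 3 anti-CD3 anti-LAIR-1 libraries were compared with the 3 anti-CD3 isotype libraries. Txnip and Slfn1 were higher with anti-LAIR-1, and no member was called lower. They are 2 of 9 members tested, where 3.92% of 8551 protein coding genes were higher, 1.88% lower and 5.80% changed in either direction (edgeR). The isotype libraries with anti-CD3 are those of the first comparison. In this comparison the T cell marker sum was also higher, at 2306 to 2651 against 1851 to 1996 CPM.

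With anti-CD3 and anti-LAIR-1, Txnip was at 86.4, 98.7 and 97.3 CPM, beside 58.0, 52.1 and 48.3 CPM with anti-CD3 and isotype. The lowest anti-LAIR-1 library was 28.4 CPM above the highest isotype library, and the fold was 1.78 (log2 0.83, SE 0.10, adjusted p = 7.0e-05 in edgeR). Slfn1 was at 93.7, 106 and 124 CPM, beside 56.8, 60.8 and 70.6 CPM. Here too the groups did not overlap, and the fold was 1.69 (log2 0.76, SE 0.11, adjusted p = 0.00046 in edgeR). The rise was seen in 3 of 3 mice for both genes, by 0.57, 0.91 and 1.00 for Txnip and by 0.72, 0.80 and 0.81 for Slfn1 on the log2 scale. Both stayed well below the unstimulated isotype libraries, in which the lowest values were 550 CPM for Txnip and 375 CPM for Slfn1. Each of the 10 other settings and each of 6 fits without a library kept both calls.

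The other 7 tested members did not pass the test. Foxo1 was at 83.3, 88.7 and 82.0 CPM with anti-LAIR-1 and at 68.6, 70.4 and 70.3 CPM with isotype. These ranges do not touch, but the difference was small (log2 0.27, SE 0.09, adjusted p = 0.083 in edgeR), and no setting called it. Btg2 had a log2 fold change of 0.34 (SE 0.11, adjusted p = 0.089 in edgeR) with overlapping ranges, and it was called in edgeR with the replicate block (adjusted p = 0.032), with no filter on low counts (0.018) and without mouse 2 of anti-CD3 isotype (0.022). Btg1 was 295.9 to 298.1 CPM with anti-LAIR-1 and 304.1 to 358.2 CPM with isotype (log2 -0.20, SE 0.07, adjusted p = 0.14 in edgeR). Slfn2 was 240.3 to 241.9 CPM against 261.5 to 273.6 CPM (log2 -0.17, SE 0.07, adjusted p = 0.19 in edgeR). Btg1 and Slfn2 thus had values below 0 where the other 7 had values above 0.

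For Sesn1 and Tob1 the mice differed in direction. Sesn1 was at 15.4, 15.9 and 9.11 CPM with anti-LAIR-1 and at 7.86, 6.57 and 11.6 CPM with isotype. It was higher in mice 1 and 2 and lower in mouse 3, with log2 differences of 0.93, 1.22 and -0.33 and an adjusted p of 0.18 in edgeR. Tob1 showed 1.23, 0.55 and -0.11 in the same mice (adjusted p = 0.32 in edgeR), from 21 to 52 counts per library. Sesn3 was higher in 3 of 3 mice, at 13.1 to 18.6 CPM against 10.9 to 12.2 CPM, with a log2 fold change of 0.50 (SE 0.19, adjusted p = 0.14 in edgeR). In all, 6 of the 9 members (Foxo1, Btg1, Slfn1, Slfn2, Txnip and Sesn3) had groups that did not overlap, where 24.2% of all protein coding genes tested did so.

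Without anti-CD3, none of the 9 members was called between anti-LAIR-1 and isotype in edgeR, and none had an unadjusted p under 0.05. DESeq2 called none of them either. The background was 0% of 8512 protein coding genes at an adjusted p under 0.05, with 365 at an unadjusted p under 0.05 (201 in DESeq2's Wald test). The log2 fold changes of the members lay between -0.06 (Foxo1) and 0.23 (Sesn3), with SE of 0.09 to 0.22, and none of the 9 had groups that did not overlap, where 9.68% of all genes did so. Txnip was at 648, 761 and 565 CPM with anti-LAIR-1 alone, beside 550, 654 and 597 CPM with isotype. The values interleave, and Slfn1 at 366, 429 and 369 CPM also lay across its isotype libraries.

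Whether the effect of anti-LAIR-1 differed with and without anti-CD3 was tested as an interaction over all 12 libraries. It differed for Slfn1 (log2 difference 0.83, SE 0.16, adjusted p = 0.0028 in edgeR) and Txnip (0.71, SE 0.15, adjusted p = 0.0091), and for none of the other 7 members, where 2.08% of 8928 protein coding genes were called, 1.84% above and 0.246% below 0. For Slfn1 the difference was 0.77, 0.89 and 0.84 in mice 1 to 3, and for Txnip 0.33, 0.70 and 1.08. Both were above 0 in 3 of 3 mice, and both calls held in 9 of 9 other settings and 12 of 12 fits without a library. Foxo1 had an interaction of 0.34 (SE 0.13, adjusted p = 0.25 in edgeR), which was above 0 in 3 of 3 mice but was not called in any setting.

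Over the 4 groups, the levels of Txnip, Slfn1 and Foxo1 fell into the same order of ranges that did not overlap. The unstimulated groups, which overlapped each other, came first, then anti-CD3 anti-LAIR-1, then anti-CD3 isotype. The last step was not called for Foxo1 (adjusted p = 0.083 in edgeR), and 24.2% of all protein coding genes tested had anti-CD3 groups that did not overlap. From the highest to the lowest group mean the ratio was 12.5 for Txnip, 6.44 for Slfn1 and 3.32 for Foxo1. Btg2, Tob1 and Sesn1 had the same order, but their anti-CD3 groups overlapped, with ratios of 2.21, 8.66 and 8.67. Btg1 had the lowest mean in anti-CD3 anti-LAIR-1 (297 ± 1.22 CPM, SD, n = 3) and a ratio of 1.69. Slfn2 ran the other way and had its highest mean in anti-CD3 isotype (269 ± 6.89 CPM), with a ratio of 1.22 and overlap of its 3 lower groups. For Sesn3 the ratio was 1.90, and its anti-CD3 anti-LAIR-1 libraries overlapped unstimulated isotype.

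Because scaling affects all genes of a library alike, the ratio of counts of related genes within a library shows how they moved apart. It is read only for its change between libraries, since counts per gene are not levels per length. The ratio of Slfn1 to Slfn2 was between 1.499 and 2.36 in unstimulated isotype and 1.45, 1.72 and 1.73 in unstimulated anti-LAIR-1. Under anti-CD3 it was 0.208, 0.222 and 0.270 with isotype and 0.387, 0.441 and 0.518 with anti-LAIR-1. The stimulated libraries are all below the unstimulated, and the anti-LAIR-1 libraries all above isotype within the stimulated. Sesn1 to Sesn3 went from 3.00 to 5.34 in unstimulated isotype down to 0.574 to 0.947 in the anti-CD3 isotype group, beside 0.694 to 0.891 when anti-LAIR-1 was added. The sestrins thus came apart with anti-CD3, while the anti-CD3 groups overlapped. Btg1 to Btg2 was 4.00 to 5.21 in anti-CD3 isotype, above the 2.78 to 3.32 in anti-CD3 anti-LAIR-1 and the 3.01 to 3.88 in unstimulated isotype. No test was run on the ratios.

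**Figure D3:**
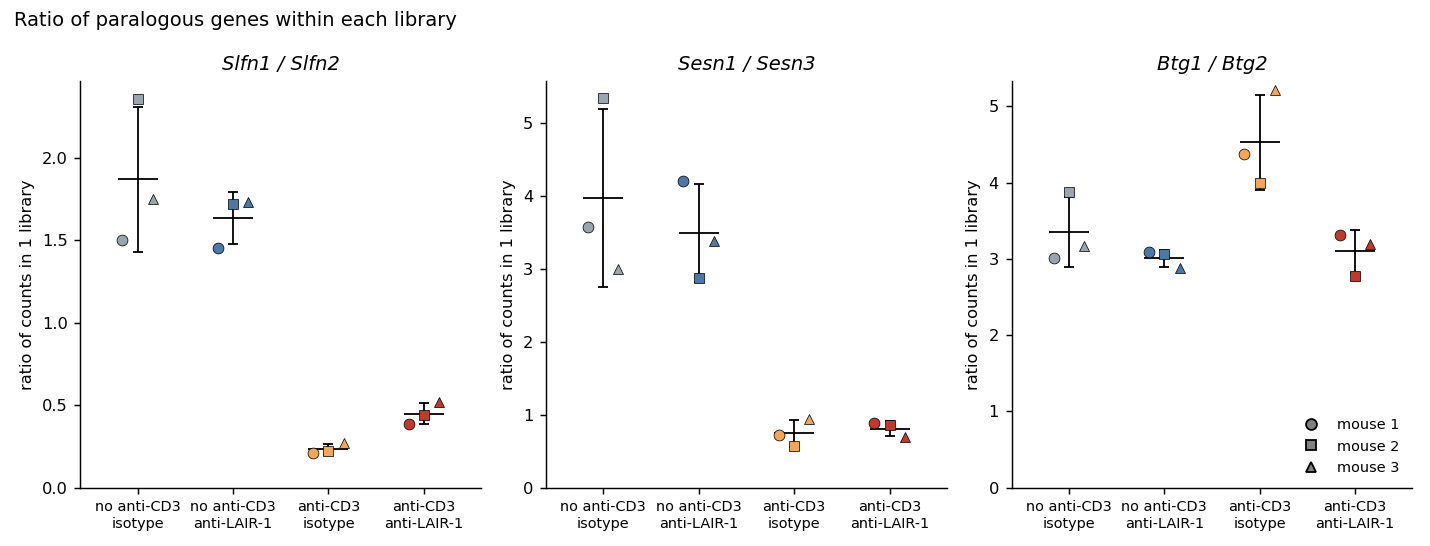
Ratio of the counts of related genes within each library (y axis, from 0) in the 4 groups (x axis). Points are libraries with a symbol for each mouse, and bars are the mean and SD of 3 mice. Slfn1 to Slfn2 was 1.87 ± 0.442 in unstimulated isotype, 0.233 ± 0.0325 in anti-CD3 isotype and 0.449 ± 0.0655 in anti-CD3 anti-LAIR-1.

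Of 13 genes listed as FOXO targets, with earlier results of these data known, all 13 were lower with anti-CD3. Their control by FOXO in these cells was not tested. The median log2 fold change was -3.74 with isotype and -2.51 with anti-LAIR-1, beside -0.02 over all genes in each. Among all genes, 35.8% were lower with isotype and 36.1% with anti-LAIR-1. With isotype the extremes were Il7r, the receptor for the survival cytokine IL-7, which fell by 5.95 on the log2 scale, and Ccr7, the lymph node homing receptor, which fell by 0.79. With anti-LAIR-1 they were Il7r (-4.75) and Bcl2l11, which encodes the death protein BIM (-0.66).

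Between anti-LAIR-1 and isotype with anti-CD3, 10 of 12 tested FOXO targets were higher and none lower in edgeR, where 3.92% of all genes were higher. The median log2 fold change was 1.03 beside 0.0047 over all genes. S1pr1, the receptor by which T cells leave lymph nodes, was at 77.7, 95.0 and 99.8 CPM with anti-LAIR-1 and at 28.7, 15.5 and 25.4 CPM with isotype. The groups were well apart, and S1pr1 had the highest value of the list (log2 1.97, SE 0.16, adjusted p = 1.6e-06 in edgeR). Il7r and Cdkn1b are added here with their values known. Il7r, higher by 1.33 on the log2 scale (SE 0.22, adjusted p = 0.0012 in edgeR), was at 13.2, 12.3 and 15.9 CPM beside 5.74, 5.72 and 4.99 CPM. Cdkn1b, which encodes the cell cycle inhibitor p27, was at 86.6, 81.4 and 98.9 CPM beside 37.8, 39.8 and 49.1 CPM (log2 1.05, SE 0.11, adjusted p = 3.5e-05 in edgeR). Cdkn1b, like S1pr1, remained far below the 561 to 631 CPM of its unstimulated isotype libraries.

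The lowest of the called values was that of Bcl2l11 (log2 0.32, SE 0.09, adjusted p = 0.048 in edgeR). With the replicate block its adjusted p was 0.056 in edgeR and 0.26 in DESeq2. The call was lost in 4 of 10 other settings, these included, and in each of 6 fits without a library (0.063 to 0.20). Named with their values known, Ccr7 (log2 -0.21, adjusted p = 0.34 in edgeR) and Rictor, a subunit of mTORC2 (0.38, adjusted p = 0.16), did not pass, and Irs2 had too few counts to be tested. The count of 10 became 9 in edgeR and 6 in DESeq2 with the replicate block. It was 7 or 8 in each of the 6 fits without a library. Without anti-CD3 none of the 13 was called in edgeR or DESeq2, while 1 had an unadjusted p under 0.05 in edgeR (median log2 fold change 0.02, beside -0.0017 over all genes). The interaction was called above 0 for 7 of 13, from S1pr1 (1.92, SE 0.17, adjusted p = 2.1e-07 in edgeR) down to Klf2, a quiescence factor that drives S1pr1 (0.69, SE 0.18, adjusted p = 0.042). Among all genes, 1.84% were called above 0. The call of Klf2 was lost in 9 of 12 fits without a library, where its adjusted p reached 0.13, and in 3 of 9 other settings, where it reached 0.28, and the count of 7 became 4 without mouse 3 of anti-CD3 anti-LAIR-1 or without mouse 1 or mouse 3 of anti-CD3 isotype.

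**Figure D4:**
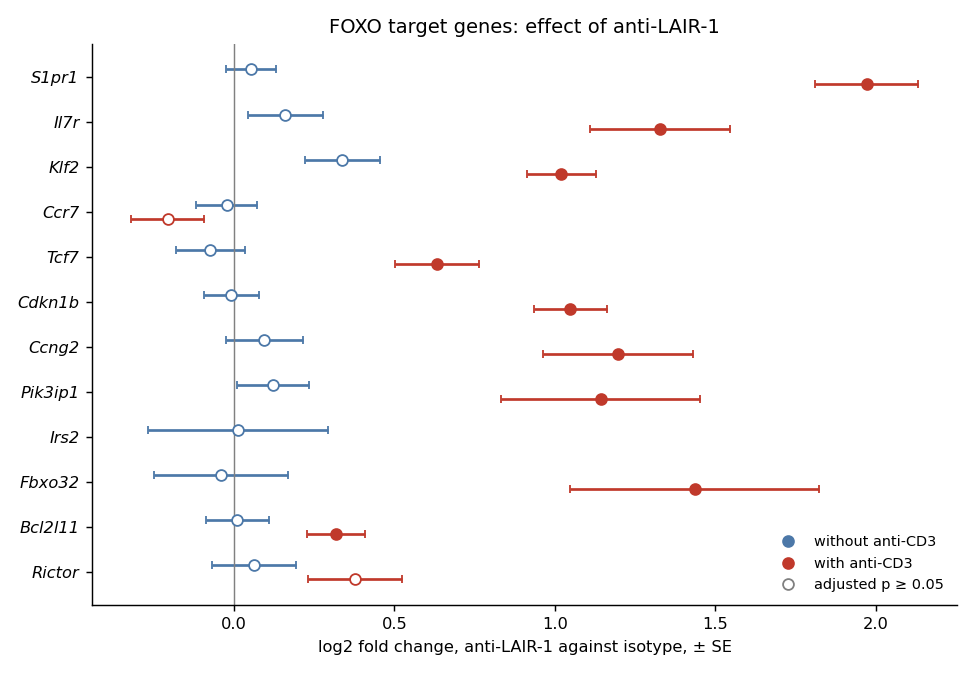
Log2 fold change of anti-LAIR-1 against isotype (x axis, with SE, 3 libraries per group) for 12 of the 13 FOXO target genes (y axis), without anti-CD3 (blue) and with it (red). Open points have an adjusted p of 0.05 or more in edgeR, and Irs2 has no red point because it could not be tested. The 9 filled points run from Bcl2l11 at 0.32 to S1pr1 at 1.97, and the blue points lie between -0.07 and 0.34.

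The closest relatives of the members mostly fell with anti-CD3 as well. Of 17 listed relatives 13 had a row and 7 could be tested, of which 6 were lower and Tob2 was higher in the isotype libraries, and the counts were the same with anti-LAIR-1 (medians -2.12 and -1.50). Among all genes, 35.8% were lower and 35.6% higher with isotype, and 36.1% and 36.8% with anti-LAIR-1. Tob2 went from 42.5 ± 5.53 to 97.3 ± 9.26 CPM with isotype (SD, n = 3; adjusted p = 5.1e-08 in edgeR), opposite to Tob1, and had a log2 fold change of 1.00 (SE 0.13) with anti-LAIR-1. Foxo4 went from 16.2, 14.7 and 8.09 CPM to 0, 1.70 and 0.804 CPM, which is near the limit of detection, so that no fold is given, while the fold change with anti-LAIR-1 was -2.78 on the log2 scale (SE 0.37). Arrdc1, an arrestin domain relative of Txnip, was the only relative of 6 tested that was called between anti-LAIR-1 and isotype with anti-CD3 (15.1 ± 4.32 against 7.97 ± 1.75 CPM, SD, n = 3; log2 0.93, SE 0.25, adjusted p = 0.033 in edgeR). It was not called without mouse 1 (0.074) or mouse 3 (0.13) of the anti-LAIR-1 group or mouse 2 (0.061) or mouse 3 (0.16) of isotype, nor in DESeq2 with the replicate block (0.22) or after thinning to the smallest total (0.30). The median of these 6 relatives was 0.22, and 3.92% of all genes were higher in this comparison.

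Of other genes that hold T cells quiescent, 4 of 11 tested were higher with anti-CD3 and isotype and 4 lower (median log2 fold change -0.29), where 35.6% of all genes were higher and 35.8% lower, and with anti-LAIR-1 4 were higher and 5 lower (median -0.11), where 36.8% of all genes were higher and 36.1% lower. The extremes with isotype were 4632428N05Rik, which encodes the checkpoint VISTA (log2 fold change 1.01, SE 0.09), and the CDK inhibitor gene Cdkn2c, which went from 5.74 ± 2.23 to 0.960 ± 0.747 CPM (SD, n = 3). With anti-LAIR-1 they were Runx1 (1.06, SE 0.21) and Cdkn2c (-1.55, SE 0.36). In the anti-CD3 isotype libraries Cdkn2c had 6, 2 and 4 counts, which is near the limit of detection. Elf4, an ETS factor that restrains CD8+ T cell proliferation, was the only one of 10 tested that was higher with anti-LAIR-1 than with isotype under anti-CD3 (log2 0.47, SE 0.10, adjusted p = 0.0072 in edgeR). With the replicate block its adjusted p was 0.061 in DESeq2, and the median of the 10 was 0.06. In edgeR 3.92% of all genes were higher in this comparison.

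Genes that work with the members were examined by the same counts. For all genes the shares were 35.6% higher and 35.8% lower with anti-CD3 and isotype. With anti-CD3 and anti-LAIR-1 they were 36.8% and 36.1%. Of 15 subunits of the CCR4-NOT and PAN deadenylases and their poly(A) binding partners, 7 were higher and 3 lower with anti-CD3 and isotype (median 0.20), from Pabpc4 (log2 1.86, SE 0.44) to Cnot6l (-0.95, SE 0.16). With anti-LAIR-1 7 were higher and 5 lower (median 0.15), with the same extremes (Pabpc4 1.71, Cnot6l -0.90). Pabpc4 was low in unstimulated isotype (2.90 ± 1.93 CPM, SD, n = 3), where the limit of detection was 0.993 to 1.62 CPM. Its log2 fold change with isotype was 1.36 to 2.37 without a library. Of 8 thioredoxin system and glucose transporter genes, 6 were higher with anti-CD3 and isotype (median 1.08) and 5 with anti-LAIR-1 (median 1.12). Txnrd1, thioredoxin reductase, led both times (log2 2.01, SE 0.15, and 1.88, SE 0.12), opposite to Txnip. The smallest called changes were Mlxip with isotype (0.52, adjusted p = 0.025 in edgeR, lost without mouse 1 or 3 of unstimulated isotype or mouse 2 of anti-CD3 isotype, at 0.15, 0.056 and 0.12, and in 4 of 10 other settings, at up to 0.13) and Mlx with anti-LAIR-1 (0.70). Of 11 tested GATOR and Rag subunits, through which sestrins act, 4 were higher and 2 lower in each comparison (medians -0.03 and -0.01). The extremes were Sec13 (1.25 with isotype and 1.34 with anti-LAIR-1), Nprl2 with isotype (-1.22) and Depdc5 with anti-LAIR-1 (-1.71). Within anti-CD3, no gene of these 3 lists was called between anti-LAIR-1 and isotype in edgeR or DESeq2 (medians -0.02, 0.04 and -0.06), with 1, 0 and 0 at an unadjusted p under 0.05 in edgeR. The share called over all genes was 5.80% in edgeR.

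A list of 14 early activation genes, chosen with earlier results of these data known, was all higher with anti-CD3. The median log2 fold change was 3.09 with isotype and 3.30 with anti-LAIR-1. Among all genes, 35.6% and 36.8% were higher. Ifng and Il2 had no count in any unstimulated isotype library and reached 38.4 ± 0.275 and 16.7 ± 1.41 CPM (SD, n = 3), which is at least 30.1-fold and 13.1-fold higher against the mean of the libraries' limits of 3 counts. With these bounds in place of the fitted values the median stayed at 3.09. The smallest rise was that of Cdk4 (1.86 with isotype and 1.91 with anti-LAIR-1). Between anti-LAIR-1 and isotype with anti-CD3, 4 of 14 were lower and none higher (median -0.10): Ifng (-1.44, SE 0.17), Il2 (-1.07, SE 0.20), the cyclin gene Ccnd2 (-0.71, SE 0.10) and Il2ra (-0.49, SE 0.08). Among all genes, 1.88% were lower. Il2 and Ccnd2 were added with their values known. Ifng went from 38.7, 38.1 and 38.4 CPM with isotype to 16.9, 15.2 and 9.75 CPM with anti-LAIR-1, and the other 10 genes did not pass the test.

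As with the members, no gene of the lists above was called between anti-LAIR-1 and isotype in unstimulated cells in edgeR or DESeq2. At an unadjusted p under 0.05 in edgeR there were 1 deadenylase gene and 1 early activation gene, and none among the relatives, the other quiescence factors, the thioredoxin and glucose genes or the GATOR and Rag genes. The interaction was called in edgeR for none of these 6 lists (DESeq2 called 1 early activation gene), with 2 relatives, 1 other quiescence factor, 1 deadenylase gene, 1 GATOR or Rag gene, 2 early activation genes and 0 thioredoxin or glucose genes at an unadjusted p under 0.05.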

How the data were processed

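RNA of 12 cultures of naïve CD8+ T cells was made into libraries by an adapted CEL-seq protocol, which tags the 3′ ends of transcripts, and sequenced on a NextSeq. The authors aligned the read that carries the transcript to the mm10 transcriptome with BWA, discarded reads with several equally good places, and deposited whole-number counts per gene. Whether molecular identifiers were collapsed, and whether strand was used, was not given in the sources used here. Counts of 3′ tags are not levels per length.

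The counts were tested as deposited with the quasi-likelihood test of edgeR 4.0.16 in R 4.3.3, after filterByExpr and TMM normalization, with Benjamini-Hochberg adjustment over all genes tested and a threshold of 0.05 on the adjusted p. Each comparison used its 6 libraries, and the interaction used all 12. Genes other than protein coding were left out of the counts afterwards. Of 14323 symbols, 14284 matched GENCODE M21 or RefSeq. Levels are normalized CPM. 3 counts were taken as the limit of detection, which covers counting error only. DESeq2 1.42.0, other scalings, other filters, a replicate block, the fit of all libraries, each library left out, and, after the data were seen, thinning to the smallest total were tried as alternatives. Scripts were tested on simulated data.

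The number of a library marks its mouse, so numbers pair the libraries. Deviations from the group means correlated at 0.0265 to 0.0891 on average within a mouse and at -0.0133 to -0.0446 between mice. Because 3 libraries were centred on their group mean, the value between mice follows from that within a mouse. The main fit had no block. Pairs of libraries of 1 group differed by more than counting noise (chi-square per gene 3.82 to 5.62), and each was counted as a sample of its own. The p-values of the main fit rest on the spread between libraries of a group. With 1 library for each mouse and condition, that spread holds mouse, culture and library preparation together.

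The named genes were all 10 members, and of each list the highest and lowest log2 fold change among the genes called, beside those the text says were added with values known. The values of 1 FOXO target are not reported here, though the counts and medians of the list include it. Members and lists were chosen with earlier results of these data known. Promoters came from RefSeq on GRCm38.p6, and identities were computed with Biopython 1.88.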

Additional observations from a re-analysis of the deposited data

Results flagged for a closer look

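The effect of anti-LAIR-1 against isotype differed with and without anti-CD3 for 2 members, by the interaction test in edgeR over 12 libraries. Slfn1 had a log2 difference of 0.83 (SE 0.16, adjusted p = 0.0028) and Txnip of 0.71 (SE 0.15, adjusted p = 0.0091). Both were above 0 in 3 of 3 mice. Among the genes named from the FOXO target list, S1pr1 had 1.92 (SE 0.17, adjusted p = 2.1e-07 in edgeR) and Klf2 had 0.69 (SE 0.18, adjusted p = 0.042 in edgeR), the latter lost in 9 of 12 fits without a library and in 3 of 9 other settings. Groups of 3 libraries were not searched for outlying samples.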

How the results depend on the processing

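Of 2017 values recomputed under alternatives, 1927 kept their direction and side of the threshold (or, for counts, stayed within 1.5 times), 56 were no longer past it, 3 came to pass it, 20 counts moved further and 11 changed sign, none of which had been called. Slfn2 with anti-CD3 under anti-LAIR-1 became -0.10 with library totals, -0.20 with upper quartile factors, -0.033 with at least 10 counts in every library and -0.025 after thinning, and -0.059 to 0.057 without a library. Between anti-LAIR-1 and isotype in unstimulated cells, leaving out a library gave -0.039 to 0.069 for Btg1, -0.0062 to 0.28 for Tob1, -0.12 to 0.019 for Foxo1 and -0.14 to 0.038 for Slfn1. The FOXO targets called within anti-CD3 went from 10 to 6 in DESeq2 with the replicate block, and to 7 or 8 without a library. Those with an interaction went from 7 to 4 after thinning and to 4 to 8 without a library. The cause was not tested.

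With the replicate block (libraries paired by mouse) edgeR called 9, 8, 3, 0 and 2 members in the 5 comparisons in the order of the text, and DESeq2 7, 7, 2, 0 and 2, beside 9, 8, 2, 0 and 2 without it. In edgeR the block changed the call of Btg2 (log2 0.35, adjusted p = 0.032) and Bcl2l11 (0.32, adjusted p = 0.056). Over all genes, the 496 calls between anti-LAIR-1 and isotype within anti-CD3 became 235 in DESeq2 with the block, 309 after thinning, 287 without mouse 2 of anti-CD3 isotype, and 309 and 328 without mouse 2 and mouse 3 of anti-CD3 anti-LAIR-1. The 186 interaction calls became 123 after thinning and 100 to 179 without a library (100 without mouse 3 of anti-CD3 anti-LAIR-1), and the 0 calls in unstimulated cells became 3 with no filter and 1 without mouse 2 of unstimulated anti-LAIR-1. Thinning was added after the data were seen. Depth limits Foxo3, at 0 to 5 counts, and Tob1 with anti-CD3.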

Other observations

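The genes whose pattern over the 12 libraries was nearest to a member were found by the root mean square difference of centred log2 CPM among 9222 genes, as a description with no test. Foxo1 was nearest to Cd8b1 (0.073), the CD8 beta chain, and to Paip2 (0.080). Slfn1 was nearest to Gramd1a (0.10) and Stk10 (0.11), and its neighbour Slfn2 to Cd164 (0.063) and Cbfa2t2 (0.084). Txnip was nearest to Selplg (0.12), the P-selectin ligand, and Rassf2 (0.12). Btg1 was nearest to Lsm14b (0.094) and Cmip (0.096), and Btg2 to Pan3 (0.12), a deadenylase subunit, and Smchd1 (0.12).

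The members with low counts had larger distances to their nearest genes. The distance also depends on how much a gene varies, so members are not ranked by it. The SD of log2 CPM over the 12 libraries was 1.41 for Tob1 and 0.15 for Slfn2. Tob1 was nearest to Add3 (0.19) and Mkl1 (0.21), Sesn1 to S100a13 (0.21) and Zfp831 (0.23), and Sesn3 to Ap1s2 (0.17) and Ninj1 (0.19). Among the members themselves the closest were Tob1 and Sesn1 (0.23), followed by Btg1 and Btg2 (0.26).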
